A study of Mus musculus with 32 samples.

Results

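The genes that carry carbon from mitochondrial citrate to palmitate were followed in mouse mammary gland and liver: the citrate carrier Slc25a1, ATP citrate lyase (Acly), fatty acid synthase (Fasn), cytosolic malic enzyme (Me1), and the paired lipogenic proteins Thrsp and Mid1ip1. Every probe set that the array's annotation tied to one of these genes alone was taken, which gave 8 of the 12488 probe sets for the 6 genes. Slc25a1 and Mid1ip1 had 2 probe sets each, and the brighter one stands for the gene; the others are written Slc25a1 (162358_i_at) and Mid1ip1 (95135_at). Each of 32 arrays held RNA of one tissue sample from wildtype FVB mice, an inbred strain, and no other allele or agent was named. Mammary glands of dams on chow were taken at pregnancy days 12 and 17 and at lactation days 1, 2 and 9, with 4 arrays per stage. Mammary glands of dams on a diet with 8% of energy as fat (soy oil) and of dams on 40% were taken at lactation day 10, 5 days after the change from chow, and liver was taken from dams on 8%, with 3 arrays per group. Another 3 mammary arrays are titled 16% dietary fat. How and when that diet was fed is not stated, and the description field speaks of 40% fat for the 8% and 16% glands too, so these groups follow the titles. Nothing in the labels says which liver and gland came from one dam.

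Fatty acid synthesis starts from citrate made in the mitochondrion. Slc25a1 exports the citrate to the cytosol, Acly splits it into oxaloacetate and acetyl-CoA, and acetyl-CoA carboxylase makes the malonyl-CoA from which Fasn builds palmitate with NADPH. Me1 returns oxaloacetate carbon, as malate, to pyruvate and yields NADPH on the way. Thrsp (Spot 14) and its relative Mid1ip1 bind each other and take part in the control of acetyl-CoA carboxylase. The lactating mammary gland uses this route to make the medium-chain and long-chain fatty acids of milk from glucose, and liver uses it when carbohydrate is plentiful. No probe set of a single gene stood for Acaca, the gene of the main cytosolic acetyl-CoA carboxylase, so that step was not analysed here.

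Values are log2 intensities of the deposited table. A value is a level of one probe set, and levels of different probe sets cannot be set against each other. Array medians ran from 16.1 to 21.5 on the linear scale. Groups of 3 or 4 arrays limit the precision of every value. The p-values of limma set a difference of means against the spread of arrays within groups, pooled over the groups of a fit and moderated over probe sets. The tissue labels were matched by the markers: the hepatocyte gene Alb had a mean of 14.88 in liver and of 3.25 to 3.83 in the mammary groups, below the filter line of 4.22, and the casein gene Csn2 had 2.50 in liver. A change counts as called where limma's p, after Benjamini-Hochberg adjustment over every tested probe set, was under 0.05.

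The stretches upstream of the start sites of Slc25a1, Acly and Thrsp are shown first because the first pair of genes rose most from pregnancy day 17 to lactation day 2, and Thrsp is set beside them as a gene with a smaller rise. RefSeq lists 7 start windows for the 6 genes on GRCm38.p6, from 250 bases before to 50 after a start, with a pair of windows for Me1. The windows were searched on both strands for a sterol response element (TCACNCCAC), the E-box CACGTG, the CCAAT box and the GC box GGGCGG. The lines below give the 250 upstream bases on the gene's strand, with matches in capitals, so that ATTGG is a CCAAT box and CCGCCC a GC box on the other strand. They cover chr16:17928220-17928469 (minus strand) for Slc25a1, chr11:100528001-100528250 (minus strand) for Acly and chr7:97417551-97417800 (minus strand) for Thrsp.
Slc25a1: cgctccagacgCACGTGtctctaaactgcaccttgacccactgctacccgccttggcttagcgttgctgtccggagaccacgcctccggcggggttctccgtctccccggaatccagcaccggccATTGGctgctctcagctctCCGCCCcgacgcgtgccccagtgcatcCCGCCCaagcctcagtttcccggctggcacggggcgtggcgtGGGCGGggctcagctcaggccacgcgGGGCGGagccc
Acly: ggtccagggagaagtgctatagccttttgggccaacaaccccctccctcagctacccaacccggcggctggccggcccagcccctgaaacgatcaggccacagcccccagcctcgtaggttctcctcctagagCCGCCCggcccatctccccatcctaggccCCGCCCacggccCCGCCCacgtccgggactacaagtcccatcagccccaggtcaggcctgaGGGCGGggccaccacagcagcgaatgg
Thrsp: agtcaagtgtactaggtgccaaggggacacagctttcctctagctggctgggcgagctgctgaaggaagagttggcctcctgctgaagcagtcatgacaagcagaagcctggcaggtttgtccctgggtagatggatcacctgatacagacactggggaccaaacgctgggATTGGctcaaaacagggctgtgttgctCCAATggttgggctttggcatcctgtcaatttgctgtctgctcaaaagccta
The Slc25a1 stretch holds the E-box at position -239 from the start, a CCAAT box and 4 GC boxes. The Acly stretch holds 4 GC boxes, and its only CCAAT box lies downstream of the start, outside the bases shown. The Thrsp stretch holds 2 CCAAT boxes and no GC box.

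Over the 7 windows the sterol response element was found in 0, against 1.24% of the 32851 windows of all genes. The E-box was found in 1, that of Slc25a1, against 7.15% of all windows. A CCAAT box was found in 5 of the 7 windows, against 37.4% of all windows. It was found 3 times for Fasn, and not for Mid1ip1 or the main Me1 window. A GC box was found in 4 of the 7 windows, those of Slc25a1, Acly, Me1 and Mid1ip1, against 35.7% of all windows. These 4 windows had 68% to 74.7% G and C, against 53.8% over all windows. The Fasn window, with 69.3%, had no GC box. The part of base composition in these shares was not tested. The Fasn window starts 619 bases inside the outer end of the gene on chromosome 11 (120805958 to 120825166), so it does not cover the bases before that end. A match is a stretch of letters, and no match says only that these letters are not in the window.

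Across the course from pregnancy to lactation, all 8 probe sets passed the test for any change over the 5 stages (limma's moderated F, adjusted p from 2.15e-09 for Acly to 0.0202 for Mid1ip1 (95135_at)), as did 87.5% of all 7189 probe sets tested. Slc25a1, Acly, Fasn and Me1 had their highest stage mean at lactation day 2, and Thrsp and Mid1ip1 at lactation day 9. Mid1ip1 (95135_at) had its highest at pregnancy day 12, where its arrays spread from 4.23 to 6.01.

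**Figure D1:**
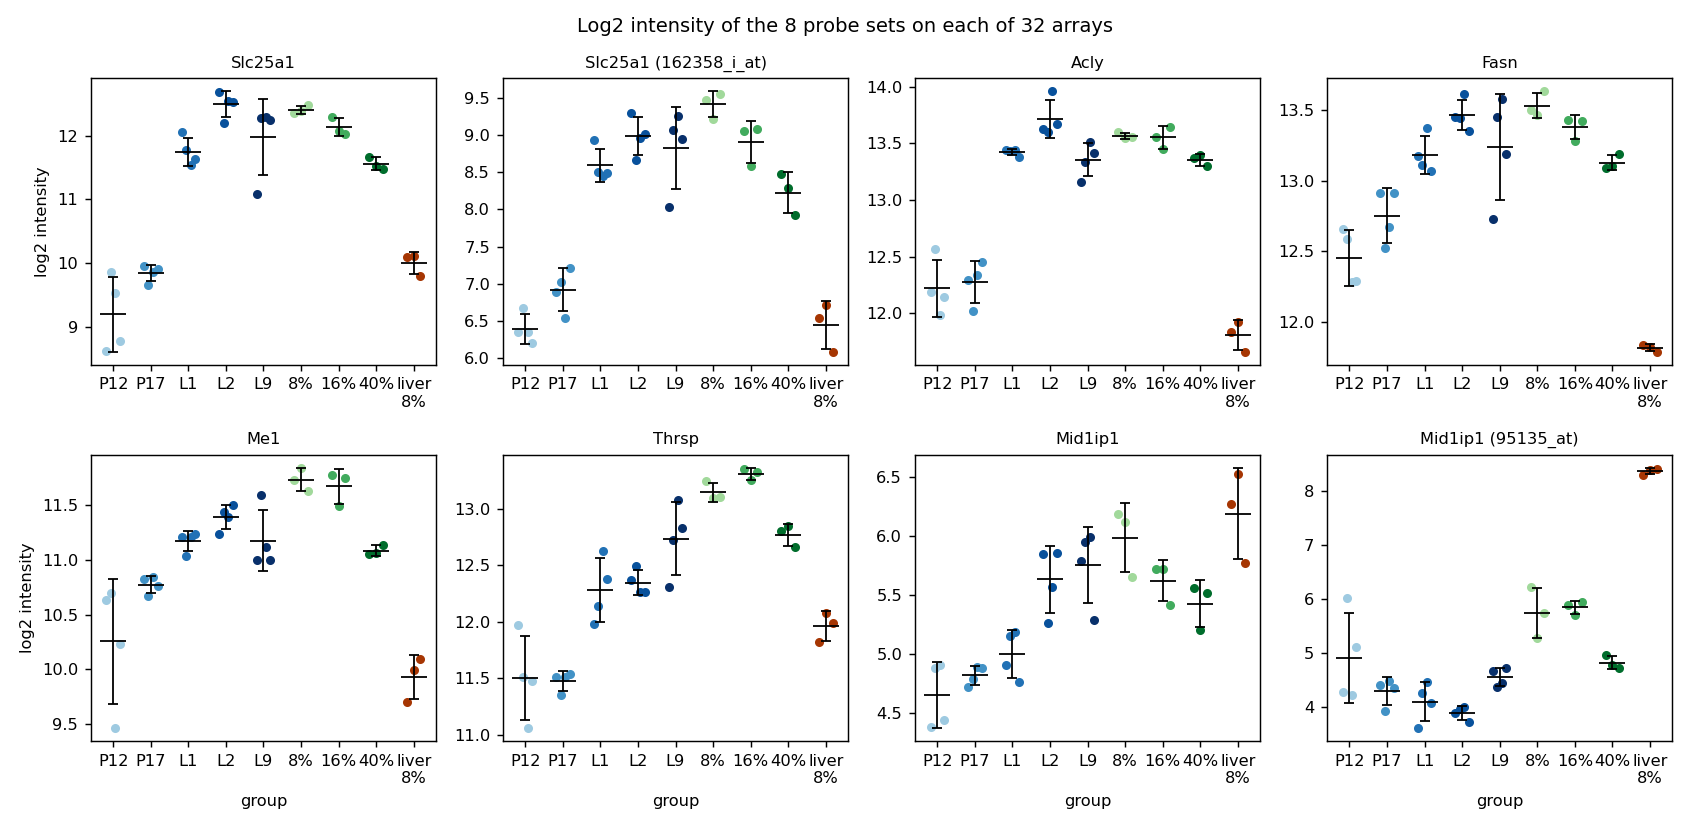
Log2 intensity (y axis) of the 8 probe sets on each of the 32 arrays, by group (x axis: P12 and P17, pregnancy days; L1, L2 and L9, lactation days on chow; 8%, 16% and 40%, dietary fat in mammary gland; liver on 8% fat). Points are arrays, long bars the group mean and short bars ± 1 SD (n = 4, or 3 on the diets); each panel has its own axis, which does not start at 0. Slc25a1 runs from 8.62 to 12.68 in the gland.

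The main contrast of secretory activation was lactation day 2 against pregnancy day 17. In it 7 of the 8 probe sets rose and none fell, against 25.5% of all tested probe sets called higher and 49.9% called in either direction. The same 7 had arrays that did not overlap between the stages, as did 50.3% of all probe sets, 29.1% with the lactation arrays higher. The median change over the 8 was 0.84, against 0.04 over all tested. These are RNA levels in whole tissue, where fewer cells of a type and less RNA per cell cannot be told apart.

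Slc25a1, the citrate exporter, moved most. Its 4 arrays at pregnancy day 17 read 9.95, 9.65, 9.86 and 9.90. At lactation day 1 they read 12.05, 11.77, 11.54 and 11.63, and at lactation day 2 12.68, 12.20, 12.55 and 12.53. Each lactation array lay above every pregnancy day 17 array, and each day 2 array above every day 1 array. From pregnancy day 17 to lactation day 2 the level rose by 2.65 ± 0.26 (SE), which is 6.29-fold (adjusted p = 2.57e-07). The other probe set, Slc25a1 (162358_i_at), went from 6.92 ± 0.29 (SD, n = 4) to 8.98 ± 0.25, a rise of 2.06 ± 0.21 or 4.18-fold (adjusted p = 4.88e-07), so both probe sets moved the same way.

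Acly, which makes the cytosolic acetyl-CoA, followed. Its arrays read 12.29, 12.02, 12.34 and 12.45 at pregnancy day 17, then 13.44, 13.43, 13.44 and 13.38 at lactation day 1, and 13.63, 13.60, 13.96 and 13.67 at day 2. The stages did not overlap in that order. The rise to day 2 was 1.44 ± 0.12, or 2.71-fold (adjusted p = 5.63e-08).

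Fasn, the palmitate-making enzyme itself, was already at 12.91, 12.52, 12.67 and 12.91 at pregnancy day 17. At lactation day 2 its arrays read 13.45, 13.44, 13.61 and 13.35, all above the pregnancy arrays. The rise was 0.71 ± 0.15, or 1.64-fold (adjusted p = 0.00106).

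Me1, a source of the NADPH that Fasn consumes, read 10.83, 10.67, 10.84 and 10.76 at pregnancy day 17 and 11.24, 11.44, 11.39 and 11.50 at lactation day 2. The groups did not overlap, and the rise was 0.61 ± 0.19, or 1.53-fold (adjusted p = 0.0140).

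Thrsp read 11.51, 11.35, 11.51 and 11.54 at pregnancy day 17. At lactation day 2 it read 12.37, 12.49, 12.26 and 12.26, above every pregnancy day 17 array. The rise was 0.87 ± 0.18, or 1.82-fold (adjusted p = 0.000625).

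Mid1ip1, the partner of Thrsp, was dim on this array, close to the filter line. It read 4.72, 4.79, 4.89 and 4.88 at pregnancy day 17 and 5.85, 5.26, 5.57 and 5.86 at lactation day 2, with no overlap. The rise was 0.82 ± 0.17, or 1.76-fold (adjusted p = 0.000747). Its other probe set gave another answer: Mid1ip1 (95135_at) had a mean of 4.30 ± 0.25 (SD, n = 4) at pregnancy day 17 and of 3.90 ± 0.13 at lactation day 2, a difference of -0.40 ± 0.28 that did not pass the test (adjusted p = 0.245). With the mean of both probe sets the change of Mid1ip1 was 0.21 (adjusted p = 0.334), so the call for this gene rests on one probe set. In the fit of these 2 stages alone Mid1ip1 (95135_at) was called lower (adjusted p = 0.0319), and the pair of probe sets then had opposite calls. Hepatocyte genes that lay lower still in the gland were also called higher at lactation day 2 in the fit of all stages. Apoa2 rose by 0.43 to 4.17, Fgg by 0.30 to 4.22, F2 by 0.27 to 4.07 and Ahsg by 0.24 to 4.06. The part of such a shift of dim probe sets in the Mid1ip1 rise was not tested.

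The sizes of the rises were compared for the 15 pairs of genes, by an exact two-sided permutation test of the difference between their log2 levels on the same arrays (4 arrays against 4, smallest possible p = 0.0286). The pairs were formed after the changes had been seen, with the brighter probe set of each gene. The other probe sets, which were left out of the pairs, changed differently. Slc25a1 (162358_i_at) rose by 2.06, against 2.65, and Mid1ip1 (95135_at) differed by -0.40, against 0.82. Slc25a1 rose by 1.21 more than Acly, by 1.94 more than Fasn, by 2.04 more than Me1, by 1.79 more than Thrsp and by 1.84 more than Mid1ip1. Acly in turn rose by 0.73 more than Fasn, 0.83 more than Me1, 0.57 more than Thrsp and 0.62 more than Mid1ip1. Each of these 9 differences had the smallest exact p, 0.0286, and an adjusted value of 0.0476 over the 15 pairs, with no overlap between the arrays of the stages. That adjusted value depends only on how many pairs stand at the smallest p, and with fewer it would be higher. All 9 hold Slc25a1 or Acly, which had been seen to rise most, so they are not independent of each other. The test permutes arrays, so it cannot tell a difference between genes from one between probe sets, which also occurred within a gene. Among Fasn, Me1, Thrsp and Mid1ip1 no pair passed (exact permutation test, adjusted p from 0.0857 to 0.886); the largest of those differences was 0.25, between Thrsp and Me1.

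The timing of the rise was not compared between genes by a test. On lactation day 1, against pregnancy day 17, 4 probe sets were called higher: both of Slc25a1, Acly and Thrsp. Over all probe sets 9.32% were called higher and 23.3% in either direction. The arrays of 6 of the 8 lay apart, all higher on lactation day 1, against 11.1% of all probe sets in that direction and 24.4% in either. Slc25a1 had risen by 1.91 ± 0.26, Acly by 1.15 ± 0.12 and Thrsp by 0.80 ± 0.18 (adjusted p = 2.57e-05, 1.66e-06 and 0.00223). These were 71.9%, 79.7% and 92.8% of the rise seen by day 2. For Fasn the difference at day 1 was 0.43 ± 0.15 (adjusted p = 0.0504) and for Me1 0.40 ± 0.19 (adjusted p = 0.157), in each case with no overlap between the groups. In the fit of these 2 stages alone the Fasn difference had an adjusted p of 0.0328 and the Me1 difference one of 0.0137. Mid1ip1 stood at 5.00 ± 0.20, only 22.2% of its later rise, and its difference of 0.18 did not pass the test (adjusted p = 0.477).

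From lactation day 1 to day 2 the only member called was Mid1ip1, which rose by 0.63 ± 0.17 or 1.55-fold (adjusted p = 0.0190), where 6.11% of all probe sets were called higher and 14.3% in either direction. Its day 1 arrays read 4.91, 5.15, 5.19 and 4.76, all below the day 2 arrays. Mid1ip1 (95135_at) differed by -0.21 between these days (adjusted p = 0.638), so the rise rests on one of a pair of probe sets that disagree. The call was lost without lactation day 2 replicate 1 or 4, or day 1 replicate 4 (adjusted p up to 0.0628). The Slc25a1 difference between these days was 0.75 ± 0.26 with an adjusted p of 0.0603. Without lactation day 9 replicate 1 in the fit that adjusted p was 0.0222, and 2 members were called.

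Between pregnancy days 12 and 17, where 45.1% of all probe sets were called and 18.4% were called higher, 1 of the 8 was called: Me1, up by 0.52 ± 0.19 or 1.44-fold (adjusted p = 0.0357). Its day 12 arrays read 10.63, 10.70, 9.46 and 10.23, and the groups overlapped. Without day 12 replicate 3, the lowest array, the difference was 0.26 with an adjusted p of 0.140, and leaving out day 12 replicate 4 or day 17 replicate 1, 3 or 4 also ended the call (adjusted p 0.0615 to 0.0713). Slc25a1 differed by 0.64 (adjusted p = 0.0508), with day 12 arrays at 8.62, 9.85, 9.53 and 8.78; without lactation day 9 replicate 1 in the fit 3 of the 8 were called, both Slc25a1 probe sets and Me1. Acly, with 12.22 ± 0.25 and 12.27 ± 0.18 at the 2 days, and Thrsp, with 11.51 ± 0.37 and 11.48 ± 0.09, differed by less than their spread.

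From lactation day 2 to day 9, Acly was the one member called, lower by 0.36 ± 0.12 on the log2 scale, which is a fall to 0.781 of the level (adjusted p = 0.0430); 16.2% of all probe sets were called lower and 25% in either direction. Its day 9 arrays read 13.16, 13.34, 13.51 and 13.42, below every day 2 array, but the call was lost without any one of 6 of the 8 arrays (day 2 replicates 1, 3 and 4 and day 9 replicates 1, 2 and 4; adjusted p up to 0.147). It was also lost with ribosomal scaling, explained below (-0.30, adjusted p = 0.243), and with quantile normalization (-0.33, 0.0806). Slc25a1 read 11.08, 12.28, 12.30 and 12.25 at day 9, with replicate 1 far below the others. Its difference from day 2 was -0.52 (adjusted p = 0.162), and -0.22 without that array. Fasn, at 12.73, 13.45, 13.58 and 13.19, was also lowest in replicate 1.

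Thrsp and both Mid1ip1 probe sets had higher means at day 9 than at day 2, without a call. Thrsp read 12.31, 12.72, 13.08 and 12.83 at day 9, a mean 0.39 ± 0.18 above day 2 (adjusted p = 0.115), and its arrays overlapped. Mid1ip1 (95135_at) differed more, by 0.65 ± 0.28 (adjusted p = 0.0983), with no overlap, and Mid1ip1 by 0.11 (adjusted p = 0.669). Without day 9 replicate 1 the Thrsp difference was 0.53 with an adjusted p of 0.0353, so that array decides the call. Set against the other members, the change of Thrsp from day 2 to day 9 was 0.91 above that of Slc25a1, 0.75 above that of Acly and 0.61 above that of Fasn. Each had the smallest exact permutation p, 0.0286, with an adjusted value of 0.143 over 15 pairs. With so few pairs at the smallest p the adjusted value cannot go lower, whatever their size, so the test gives no verdict on them.

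Against pregnancy day 17, lactation day 9 had 6 probe sets called higher and none lower, where 32.2% of all were called higher and 64% in either direction. Thrsp was up by 1.26 ± 0.18 (2.39-fold, adjusted p = 7.35e-06), Slc25a1 by 2.14 ± 0.26 (4.39-fold, 1.42e-06), Acly by 1.08 ± 0.12 (2.12-fold, 6.53e-07) and Mid1ip1 by 0.93 ± 0.17 (1.91-fold, 0.000112). Fasn was up by 0.49 ± 0.15 (1.40-fold, adjusted p = 0.00955). Me1 differed by 0.40 ± 0.19 (adjusted p = 0.0774), although its arrays at 11.00, 11.59, 11.12 and 11.00 lay above those of pregnancy day 17. This comparison shares the pregnancy day 17 arrays with the ones above.

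How the arrays are scaled bears on all lactation comparisons. When arrays were scaled to equal medians of 19 ribosomal protein genes, the median of all probe sets moved from 0.04 to 0.45 for lactation day 2 against pregnancy day 17, from 0.03 to 0.38 for lactation day 1 and from 0.01 to 0.47 for lactation day 9. The share of calls that were higher went from 51% to 84.2%, from 40% to 90.8% and from 50.2% to 77% in these comparisons. On that scale the rises to day 2 were 3.05 for Slc25a1, 1.83 for Acly, 1.10 for Fasn, 1.01 for Me1, 1.26 for Thrsp and 1.21 for Mid1ip1, all called. On lactation day 1, 7 members instead of 4 were called, while the higher calls over all probe sets went from 670 to 3406. With quantile normalization the same day 2 rises were 2.82, 1.44, 0.69, 0.60, 0.98 and 0.86. The difference of Mid1ip1 (95135_at) was -0.01 and -0.58 under the 2 scalings. Of the calls in pregnancy days 17 against 12, 40.7% were higher, and 52% after quantile normalization; for lactation days 9 against 2 these shares were 35.3% and 50.4%.

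Markers of other cells moved over the same stages. The summed intensity of 13 adipocyte genes ran from 13600 to 23400 at pregnancy day 12, from 8290 to 9140 at day 17 and from 4280 to 6890 at lactation day 2, and 7 of the 12 tested genes fell from pregnancy day 17 to lactation day 2 while none rose. Of all 7189 probe sets tested, 1759 were called lower and 1830 higher. Adipoq, an adipokine, fell by 0.71 to 10.43, so it was not at background at day 2. With ribosomal scaling 4 of the 12 fell, and Adipoq at -0.32 did not pass. The summed intensity of 10 luminal epithelial genes ran from 6880 to 7620 at pregnancy day 17 and from 4740 to 5790 at lactation day 2, and that of 9 milk secretion genes from 171000 to 190000 and from 235000 to 252000. In a list of 6 genes known from brown adipocytes the sums went from a range of 1130 to 1500 to one of 7370 to 7960, mostly through Cidea, a lipid droplet protein also known for its part in milk fat secretion (up by 2.63). The sums of 11 fibroblast and matrix genes lay at 13400-13700 at pregnancy day 17 and 6590-8840 at lactation day 2, those of 7 myoepithelial genes at 3930-4860 and 2230-2520, and those of 7 macrophage genes at 1230-1450 and 666-945. The sums of 6 endothelial genes, 851 to 1160 and 668 to 906, overlapped. The part of these markers in the rises of the 6 genes was not tested.

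**Figure D2:**
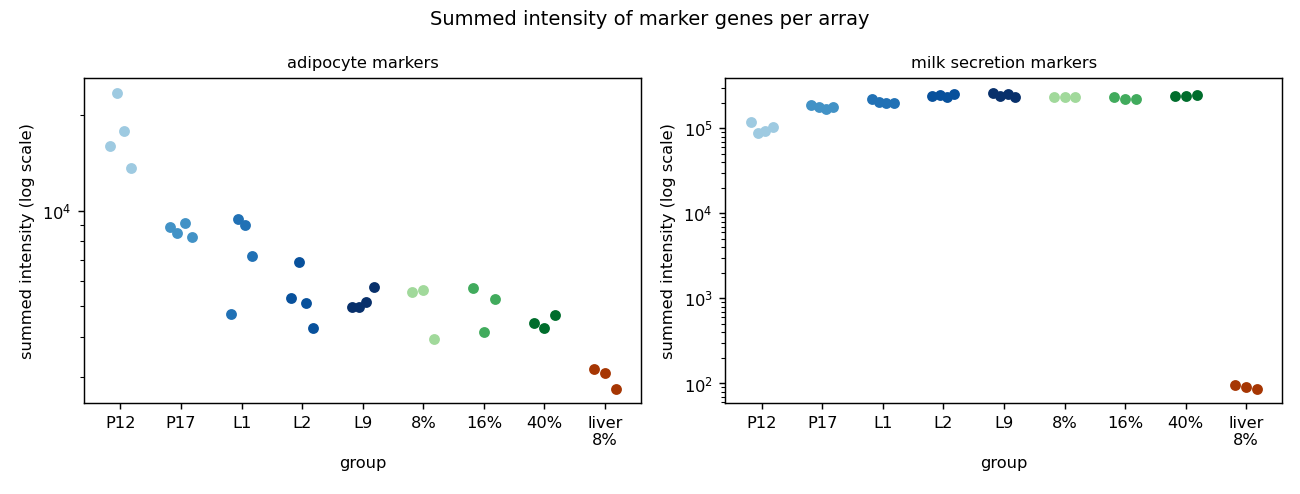
Summed intensity per array (y axis, log scale) of 13 adipocyte genes (left) and 9 milk secretion genes (right) in the 9 groups (x axis as in the plot of levels). Points are arrays; the adipocyte sum runs from 13600 to 23400 at pregnancy day 12 and from 4280 to 6890 at lactation day 2.

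On 40% fat all 8 probe sets read lower than on 8% fat on every array, where the arrays of 5.98% of all probe sets did not overlap in that direction and those of 13.1% in either. Only Slc25a1 passed the test, as 1 of 6 calls among 6483 probe sets (0.0925% called, 0.0463% called lower). At an unadjusted p under 0.05 all 8 passed, and 538 of all probe sets. With ribosomal scaling 2 members were called, both probe sets of Slc25a1, and with quantile normalization 0; the share of higher calls over all probe sets was 50% as deposited and 37.5% with ribosomal scaling. The median change over the 8 was -0.60, against 0.01 over all. Means fell in the order 8%, 16% and 40% for 6 of the 8, as they did for 12.7% of all probe sets.

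Slc25a1 read 12.35, 12.38 and 12.48 on 8% fat, 12.29, 12.08 and 12.02 on 16%, and 11.67, 11.52 and 11.48 on 40%. The 3 diets did not overlap. The fall from 8% to 40% was -0.85 ± 0.10, to 0.554 of the level (adjusted p = 0.0231). The call was lost when any one of 5 of the 6 arrays was left out (40% replicates 2 and 3, 8% replicates 1, 2 and 3; adjusted p 0.0543 to 0.113), in the fit of these 2 groups alone (adjusted p = 0.0605), with replicate number as a block (0.0762) and after quantile normalization (-0.70, 0.0508), while the change stayed between -0.91 and -0.81 over the arrays left out. Slc25a1 (162358_i_at) differed by -1.19 ± 0.18 (adjusted p = 0.0596), from 9.47, 9.22 and 9.55 on 8% to 8.47, 8.29 and 7.92 on 40% fat.

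Me1 read 11.73, 11.84 and 11.63 on 8% fat, 11.78, 11.49 and 11.75 on 16%, and 11.05, 11.06 and 11.14 on 40%. The first 2 diets overlapped and the 40% arrays lay apart, with a difference from 8% of -0.65 ± 0.11 (95% interval -0.89 to -0.41, adjusted p = 0.0796). Fasn read 13.50, 13.46 and 13.63 on 8% and 13.09, 13.10 and 13.19 on 40%, a difference of -0.40 ± 0.09 (-0.61 to -0.20, adjusted p = 0.190). Acly showed the smallest difference, -0.21 ± 0.09 (-0.41 to -0.02, adjusted p = 0.551), from 13.60, 13.55 and 13.56 to 13.37, 13.40 and 13.30. None of these passed the test over all probe sets. The intervals are not adjusted for the number of probe sets.

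Thrsp had its highest arrays on 16% fat, at 13.35, 13.25 and 13.32, above 13.24, 13.09 and 13.10 on 8% and 12.80, 12.85 and 12.66 on 40%. The 3 diets did not overlap. The difference between 40% and 16% was -0.54 ± 0.09 (adjusted p = 0.0594) and that between 40% and 8% was -0.38 ± 0.09 (adjusted p = 0.229). Mid1ip1 read 6.19, 6.12 and 5.65 on 8% and 5.56, 5.20 and 5.52 on 40% (-0.56 ± 0.17, adjusted p = 0.344), and Mid1ip1 (95135_at) differed by -0.92 ± 0.20 (adjusted p = 0.190). The pair of probe sets of Mid1ip1, which disagreed over the stages, had the same sign here.

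Between 16% and 8% fat 0 of the 8 members and 0% of all probe sets were called by limma; at an unadjusted p under 0.05 there were 2 of the 8 and 800 of 6483. The arrays of 4 members lay apart, as did those of 21.4% of all probe sets: both Slc25a1 probe sets and Fasn were lower on 16% fat, and Thrsp was higher. The difference was -0.28 for Slc25a1 (adjusted p = 0.340) and 0.16 for Thrsp (adjusted p = 0.493). Between 40% and 16% fat 0 of the 8 were called, where 0.123% of all were, 62.5% of these higher and 77.3% with ribosomal scaling; at an unadjusted p under 0.05 limma gave 6 of the 8 and 886 of all. The arrays of 7 members did not overlap between these diets, all lower on 40%, against 11% of all probe sets in that direction; Mid1ip1 overlapped. With a stricter filter on low values, at the 75th percentile of all values, Slc25a1, Me1 and Thrsp were called lower on 40% than on 16% fat (adjusted p = 0.0493, 0.0493 and 0.0471). The sizes of the diet changes from 8% to 40% fat were set side by side for the 15 pairs of genes with no verdict, since with 3 arrays against 3 the exact permutation test cannot go below 0.1. The fall of Slc25a1 was larger than the Acly difference by 0.64 on the log2 scale (-0.64), with SDs of 0.09 in both groups and no overlap, and the arrays of 8 of the 15 pairs did not overlap. In these comparisons the adipocyte sums ran from 3950 to 5630 on 8% and from 4280 to 4710 on 40% fat, and 0 of 12 tested adipocyte genes was called by limma (2 at an unadjusted p under 0.05). A list of 11 fibroblast and matrix genes had summed intensities of 2020 to 2460 on 8% and 2840 to 3220 on 40% fat, with none called (5 of 11 at an unadjusted p under 0.05) and a median change of 0.69; its part in the differences was not tested.

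**Figure D3:**
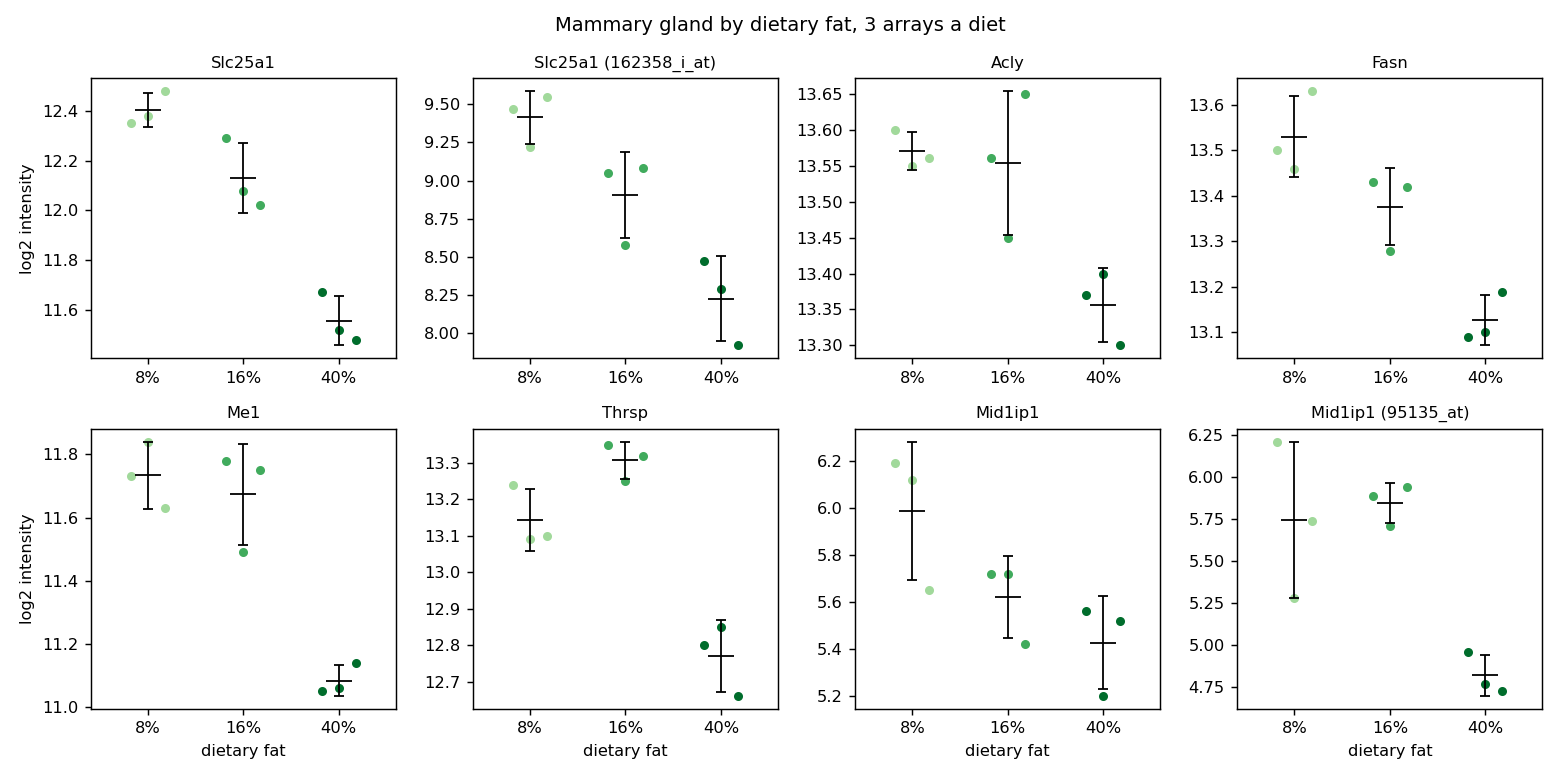
Log2 intensity (y axis) of the 8 probe sets in mammary gland by dietary fat (x axis: 8%, 16% and 40%). Points are the 3 arrays of a diet, long bars the mean and short bars ± 1 SD; axes differ between panels and do not start at 0. In each panel every 40% array lies below every 8% array; only the Slc25a1 fall of -0.85 passed the test, and with quantile normalization it did not.

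The glands on 8% fat at lactation day 10 can be set beside those on chow at day 9, which differ from them in day and diet alike. Whether the arrays of both groups were processed together is not stated either. Effects of day, diet and processing cannot be told apart here. Here 2 of the 8 were called higher on 8% fat, where 8.76% of all probe sets were called higher and 15.3% in either direction. Of the calls over all probe sets 57.3% were higher, and 70.5% with ribosomal scaling. Me1 was up by 0.55 ± 0.16 or 1.47-fold (adjusted p = 0.0499), a call that leaving out any one of 6 of the 7 arrays ended (8% replicates 1, 2 and 3, day 9 replicates 1, 3 and 4; adjusted p up to 0.146). Mid1ip1 (95135_at) was up by 1.19 ± 0.21 or 2.29-fold (adjusted p = 0.0147), from 4.66, 4.38, 4.44 and 4.72 to 6.21, 5.28 and 5.74. Without 8% replicate 3 its adjusted p was 0.0501. The brighter probe set, Mid1ip1, differed by 0.23 (adjusted p = 0.413), and its arrays overlapped. Thrsp on 8% fat lay above every chow array of day 9, by 0.41 ± 0.17 on average (adjusted p = 0.116).

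In liver, 6 of the 8 probe sets were lower than in the gland on the same 8% diet and 1 was higher, where 40.3% of all 6897 probe sets were called lower, 39.7% higher and 80% in either direction. With most of the array differing between the tissues, a call here is common. Slc25a1 read 10.09, 10.11 and 9.80 in liver against 12.35, 12.38 and 12.48 in gland, a difference of -2.41 ± 0.11, so that the gland held 5.30 times the liver level (adjusted p = 4.81e-07). Slc25a1 (162358_i_at) differed by -2.97 ± 0.17, or 7.82-fold (adjusted p = 1.86e-06). On the deposited scale the liver arrays of both probe sets overlapped with those of pregnant gland, where Slc25a1 had means of 9.20 and 9.84; with ribosomal scaling they lay above, with Slc25a1 at 11.01 in liver and at 8.74 and 9.45 in pregnant gland.

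Acly read 11.83, 11.92 and 11.66 in liver, a difference of -1.77 ± 0.10 from gland, and Fasn read 11.84, 11.82 and 11.79, a difference of -1.71 ± 0.09 (adjusted p = 1.44e-06 and 9.48e-07). Me1 read 9.70, 9.99 and 10.09 and differed by -1.81 ± 0.13 (adjusted p = 5.25e-06). For these 3 genes liver had the lowest mean of all 9 groups as deposited, at 11.80, 11.82 and 9.93, and with quantile normalization, but with ribosomal scaling its means of 12.82, 12.83 and 10.94 lay above those of both pregnancy groups. As deposited its arrays did not overlap with the next group for Acly and Fasn, while for Me1 they overlapped with pregnancy day 12. The gland held 3.40, 3.28 and 3.50 times the liver level of Acly, Fasn and Me1. Their log2 differences were within 0.09 of each other, and the intervals, -2.00 to -1.53, -1.92 to -1.50 and -2.10 to -1.51, overlapped; with 3 arrays against 3 no exact permutation test of such a pair can go below 0.1.

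Thrsp was closest between the tissues among the called falls, at 11.82, 12.08 and 11.99 in liver and 13.24, 13.09 and 13.10 in gland. The difference was -1.18 ± 0.11 or 2.27-fold (adjusted p = 2.25e-05). Mid1ip1 stood apart from its partner: liver arrays read 6.27, 6.53 and 5.77, overlapping with 6.19, 6.12 and 5.65 in gland (0.20 ± 0.22, 95% interval -0.31 to 0.71, adjusted p = 0.422). Mid1ip1 (95135_at) read 8.29, 8.38 and 8.40 in liver against 6.21, 5.28 and 5.74, a rise of 2.61 ± 0.21 or 6.11-fold (adjusted p = 1.34e-05), and liver had the highest mean of the 9 groups on both probe sets of this gene as deposited. The pair of probe sets differed much in size.

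With ribosomal scaling the median of all probe sets in this comparison moved from -0.01 to 0.81, and the share of calls that were higher from 49.6% to 89.7%. On that scale the differences were -1.45 for Slc25a1, -0.81 for Acly, -0.75 for Fasn and -0.85 for Me1, all called lower; Thrsp stood at -0.22 and lost its call (adjusted p = 0.0849), and Mid1ip1 at 1.16 gained one (adjusted p = 0.00104). With quantile normalization, which moved the median to -0.21, Thrsp was at -1.34 and Mid1ip1 at -0.12, so the sign of the latter flips. Summed hepatocyte markers ran from 514 to 2930 over the mammary arrays and from 135000 to 147000 in liver. The mammary sums came mostly from Cyp2e1, with group means of 9.11 to 11.12 there. No other gene of that list had a mammary group mean above 4.37.

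**Figure D4:**
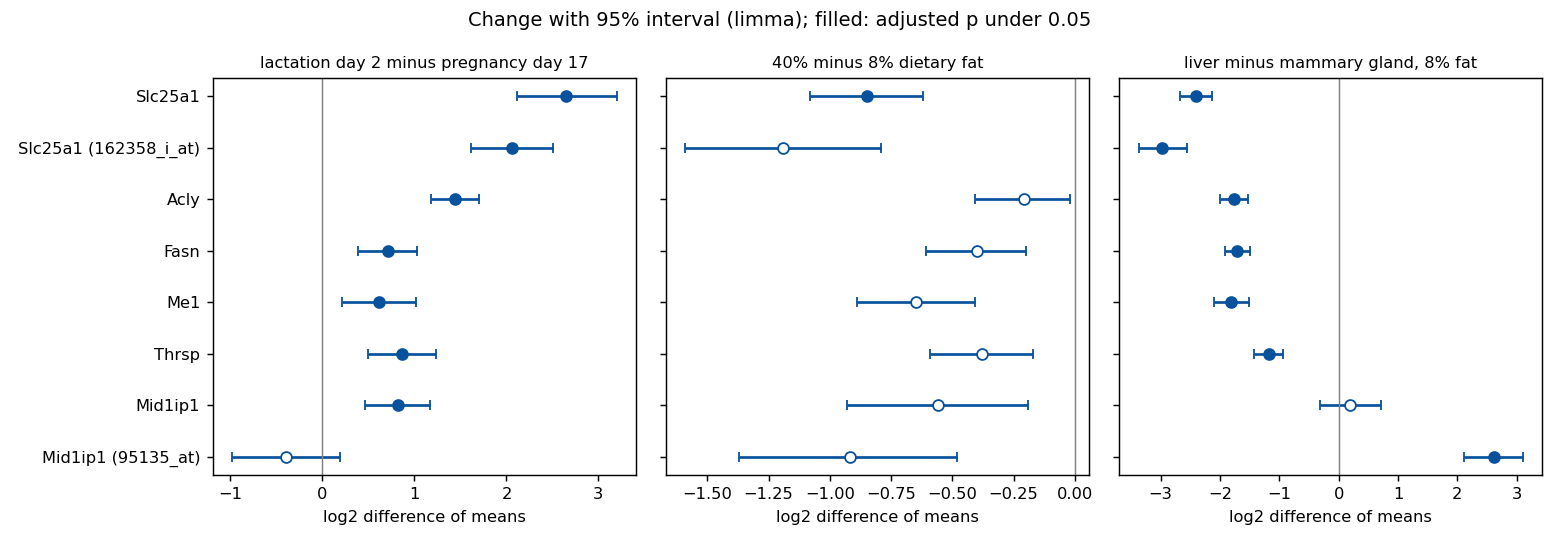
Log2 difference of group means (x axis) for the 8 probe sets (y axis) in 3 comparisons, with the 95% interval of limma as bars, not adjusted for the number of probe sets. Filled points have an adjusted p under 0.05. The Slc25a1 point lies at 2.65, -0.85 and -2.41; the Mid1ip1 point for liver, 0.20, turns to -0.12 with quantile normalization.

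The genes around this route were taken from lists that left the 6 members out. The directions in this and the next paragraph are those of the deposited scale. Among genes of citrate supply, 6 of 11 tested rose and 2 fell from pregnancy day 17 to lactation day 2 (median change 0.30, against 0.04 over all probe sets). Over all probe sets 25.5% were called higher and 49.9% in either direction, and these shares also stand beside the lists that follow for these stages. Citrate synthase (Cs) rose by 1.18, pyruvate carboxylase (Pcx) by 1.07 and the pyruvate dehydrogenase subunit Pdhb by 0.62 (adjusted p = 1.51e-07, 4.83e-06 and 0.000543). Pdk4, a kinase that shuts pyruvate dehydrogenase, fell by 1.65 and the subunit Pdha1 by 0.72 (adjusted p = 0.00088 and 0.000121). Among genes of NADPH supply 3 of 6 rose and 3 fell (median 0.12). The pentose phosphate enzymes Pgd and Tkt rose by 0.81 and 0.62, and the mitochondrial transhydrogenase Nnt by 0.70. Cytosolic isocitrate dehydrogenase (Idh1) fell by 0.89, Pgls by 0.56 and Taldo1 by 0.39. With ribosomal scaling none of these NADPH genes fell: Idh1 and Pgls stood at -0.50 and -0.16 without a call and Taldo1 turned to 0.01. Pdha1 at -0.33 lost its call as well.

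Of 5 genes of acetyl-CoA and malonyl-CoA handling, Acss1, a mitochondrial acetyl-CoA synthetase, rose by 1.23 and Dbi, the acyl-CoA binding protein, fell by 0.69 (median -0.32). Of 9 genes of fatty acid elongation and desaturation, some of which act on polyunsaturated rather than newly made fatty acids, 7 rose and 1 fell (median 0.77). Elovl5, an elongase of polyunsaturated fatty acids, rose by 2.67, and the desaturases Scd2, Fads1 (of polyunsaturated fatty acids) and Scd1 by 2.24, 1.25 and 0.77, and Hacd3 fell by 1.04. Of 10 regulators 4 rose and 2 fell (median 0.23). Srebf1, which encodes the sterol regulatory element binding protein known to drive lipogenic genes, rose by 1.21 ± 0.18 (adjusted p = 3.09e-05), Akt1, a kinase of insulin signalling, by 1.50 and Mlx, the partner of the carbohydrate response factor, by 0.59. Akt2 fell by 1.09 and Nr1h3, a liver X receptor, by 0.79. With ribosomal scaling the elongation and desaturation list had 8 higher and 1 lower of 9, the regulators 8 higher and 1 lower of 11, and Dbi (-0.29) and Nr1h3 (-0.40) lost their calls. With quantile normalization these lists had 8 higher and 1 lower, and 5 higher and 2 lower of 10.

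On the diets, 1 gene of these 5 lists was called: Scd1, the stearoyl-CoA desaturase, fell by 1.29 on 40% against 8% fat (adjusted p = 0.00118), with quantile normalization by 1.06 without a call (adjusted p = 0.0508). Srebf1 differed by -0.72 ± 0.21 (adjusted p = 0.321) and the palmitate elongase Elovl6 by -0.90 ± 0.20 (adjusted p = 0.190), without passing. Nr1h3 and Mlx differed by -0.22 and 0.11 (adjusted p = 0.660 and 0.920).

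Between liver and gland the neighbours went both ways, where 40.3% of all probe sets were called lower and 39.7% higher. Of 11 citrate supply genes 6 were lower in liver and 3 higher (median -1.02): Cs, Dlat and Pdha1 differed by -3.80, -2.23 and -1.83, and Pdk1, Slc25a11 and Dld by 1.45, 1.03 and 0.86. Of 6 NADPH supply genes Idh1, Nnt and Pgls were higher in liver by 4.35, 1.45 and 0.45, and Tkt, Pgd and Taldo1 differed by -1.65, -1.40 and -1.27. Of the 5 acetyl-CoA and malonyl-CoA genes 4 were higher in liver, led by Acsl5, Mlycd and Dbi (3.72, 1.59 and 1.59), while Acss1 differed by -8.09, with a liver mean of 2.84 that lies below the filter line. Of 10 elongation and desaturation genes 3 were higher, Elovl2, Elovl6 and Hacd3 (6.71, 2.19 and 2.03; the gland mean of Elovl2, 2.51, lies below the filter line), and 7 lower, among them Scd2, Fads1 and Elovl5 (-5.91, -1.80 and -1.71) and Scd1 (-0.22, adjusted p = 0.0459). Of the 10 regulators 3 were higher and 3 lower: Nr1h3, Akt2 and Prkab1 at 4.06, 2.25 and 0.74, and Trib3, Akt1 and Pparg at -2.89, -2.66 and -0.65. Srebf1 differed by -0.33 (adjusted p = 0.0531) and Mlx by -0.23 (adjusted p = 0.124). With ribosomal scaling Scd1 turned to 0.74 (adjusted p = 8.04e-05) and Pparg to 0.30 (adjusted p = 0.0214), and the lists of citrate supply, elongation and desaturation, and regulators had 5 higher and 4 lower, 4 and 4, and 9 and 2. With quantile normalization Pgls turned to -0.06 and Scd1, at -0.18, lost its call (adjusted p = 0.0724). The same 3 lists then had 3 higher and 7 lower, 3 and 6, and 3 and 6.

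With the brightest probe set for each gene, the group means of the 6 genes ran together over the 8 mammary groups. Pearson correlations lay between 0.83 (Acly and Mid1ip1) and 0.99 (Slc25a1 with Acly and with Fasn). Mid1ip1 (95135_at) did not follow: its correlations with the 6 lay between 0.14 (Acly) and 0.61 (Thrsp), and that with the other probe set of its own gene was 0.40. With liver as a 9th group those of Mid1ip1 with the others lay between 0.06 (Fasn) and 0.60 (Thrsp), while those among the other 5 genes lay between 0.70 and 0.97. The points are group means of the same arrays, so these values describe and are no test.

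Genes with the most similar course over the 8 mammary means were searched among 2702 genes that spanned at least 1 log2 unit. Over the 6 members together the closest were Tm7sf2, a reductase of sterol synthesis (mean r = 0.939), Nr5a1 (0.933), Cyb5r3, a cytochrome b5 reductase (0.933), Tcn2, a cobalamin carrier (0.928) and Gtf2ird2 (0.924). Tm7sf2 went from 4.67 at pregnancy day 17 to 5.62 at lactation day 2 and 5.51 on 40% fat. For Slc25a1 the closest were Nr5a1 (r = 0.973), Dohh (0.970) and Muc1 (0.968), and for Acly Dohh (0.984), Aldoc (0.977) and Rab1a (0.976). For Fasn they were Nr5a1 (0.962), Gtf2ird2 (0.959) and St6gal1 (0.955), and for Me1 Klf13 (0.957), Tpd52l1 (0.944) and Asns (0.944). Thrsp was closest to Abcd4 (0.983), the phosphate transporter Slc20a1 (0.982) and Azin1 (0.980). Mid1ip1 was closest to BC053393 (0.979), Pex14 (0.973) and Eda (0.969).

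With liver included, among 4043 genes, the lists partly changed. Fasn was closest to the glucose transporter Slc2a1 (0.978), Tmc6 (0.978) and Hat1 (0.974). Slc2a1 itself went from 6.20 at pregnancy day 17 to 7.78 at lactation day 2 and read 3.43 in liver. Acly was closest to Rab1a (0.984), Dohh (0.971) and Il15 (0.971), and Slc25a1 to Nr5a1 (0.977), Dohh (0.969) and Odc1 (0.969). Me1 was closest to Agpat1 (0.958), Pomgnt1 (0.957) and Zfp54 (0.953), Thrsp to Rab5if (0.969), 4833439L19Rik (0.964) and Slc20a1 (0.960), and Mid1ip1 to Pex14 (0.979), the phosphatidate phosphatase Lpin1 (0.966) and Pcsk4 (0.961). With so few points and so many genes searched, high values arise in any case. Pcsk4, with group means of 3.66 to 4.74, also lay around the filter line.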

How the data were processed

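RNA of 32 tissue samples was measured on an Affymetrix oligonucleotide array, and the deposited table holds 1 linear intensity per probe set and array. Per the submitters' processing notes the authors used GCRMA; the sources used here do not give its version, its settings or which arrays were processed as one set. The genes and lists were chosen with earlier results of these data known. The 66 control probe sets were left out and 12422 kept. A platform table named 1 gene for 10833, several for 396 and none for 1193; 10817 of the first were in the RefSeq table and no symbol changed. Intensities were floored at 1, which touched 208 values, and put on a log2 scale. Probe sets entered a fit when their highest group mean reached the median of all values (18.6, log2 4.22). limma 3.58.1 (R 4.3.3) was fitted to the 20 stage arrays, the 9 diet arrays, the 6 arrays of liver and gland on 8% fat and the 7 arrays of 8% fat and chow at day 9, with Benjamini-Hochberg adjustment over all tested probe sets. A gene is shown by its brightest probe set. From the lists, up to 3 called genes per direction with the largest change are named, besides Srebf1, Mlx, Nr1h3 and Scd1; likeness is Pearson's r over group means among genes whose means span at least 1 log2 unit. Alternatives were other filters and floors, other scalings, a replicate block, a variance trend, fits of the compared groups alone, the mean of a gene's probe sets and leaving out each array. The code was tested on simulated data. Liver and gland were treated as independent samples. Columns of no known sample numbered 0.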

Additional observations from a re-analysis of the deposited data

Results flagged for a closer look

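Of 40 sets of 4 arrays (8 probe sets at 5 stages), 3 held an array far from the others by Dixon's test at the 95% level, which chance gives in about 1 set in 20; the 32 sets of 3 arrays were not tested. Slc25a1 read 11.08 at lactation day 9 replicate 1, with its nearest neighbour at 12.25. Slc25a1 (162358_i_at) read 8.93 at lactation day 1 replicate 1, above a nearest value of 8.50. Me1 read 11.04 at lactation day 1 replicate 2, below a nearest value of 11.21.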

How the results depend on the processing

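All 7 calls at lactation day 2 against pregnancy day 17 and all 7 between liver and gland were kept when any one array was left out. The ranges of called probe sets over arrays left out were 7 to 8 for any change over the stages, 7 to 7 for lactation day 2 and 6 to 6 for day 9 against pregnancy day 17, 4 to 5 for day 1 against pregnancy day 17, 0 to 2 for days 2 against 1, 0 to 1 for days 9 against 2, 0 to 3 for pregnancy days 17 against 12, 0 to 1 for 40% against 8%, 0 to 0 for 16% against 8%, 0 to 1 for 40% against 16%, 7 to 7 for liver, and 0 to 2 for 8% fat against chow. With the filter at the 75th percentile 3 were called in pregnancy days 17 against 12 (1 before), 2 in 40% against 8% (1), 3 in 40% against 16% (0) and 1 in 8% fat against chow (2). With quantile normalization these counts were 3 for the pregnancy days, 2 for lactation days 2 against 1 (1), 0 for days 9 against 2 (1), 0 for 40% against 8% and 1 for 8% fat against chow. With ribosomal scaling they were 0 for the pregnancy days, 7 for lactation day 1 against pregnancy day 17 (4), 0 for days 9 against 2, 2 for 40% against 8% and 1 for 8% fat against chow. Over all probe sets, ribosomal scaling took the higher calls from 670 to 3406 for lactation day 1 against pregnancy day 17. It took the lower calls from 1163 to 807 for days 9 against 2 and from 3 to 5 for 40% against 8%. For 8% fat against chow the higher calls went from 590 to 368, and to 297 with quantile normalization. With a variance trend the member counts were 2 for the pregnancy days and 1 for 40% against 16%. In fits of the compared groups alone they were 2 for lactation days 2 against 1, 2 for days 9 against 2, 0 for 40% against 8% and 1 for 40% against 16%. Same-numbered arrays of the stages deviated together with correlations of -0.23 to 0.27, over 0.1 in 9 of 40 pairs. For the diets these were -0.18 to 0.14, over 0.1 in 2 of 9 pairs. Such values cannot show whether replicate numbers paired the arrays. With the replicate block 0 were called in lactation days 9 against 2, 0 in 40% against 8% and 1 in 8% fat against chow. Leaving out lactation day 9 replicate 1 from comparisons that do not involve it was chosen after seeing the data; it gave 3 in the pregnancy days, 2 in lactation days 2 against 1 and 5 in day 1 against pregnancy day 17, where Fasn was called (adjusted p = 0.0161). Signs turned only for differences that were not called. Quantile normalization turned Slc25a1 (162358_i_at) at days 9 against 2 to 0.05 and Mid1ip1 in liver to -0.12. Ribosomal scaling turned Thrsp in pregnancy to 0.03 and Mid1ip1 (95135_at) at lactation day 1 against pregnancy day 17 to 0.15. The mean of both probe sets turned Mid1ip1 to -0.22 in pregnancy and -0.01 at lactation day 1. Over the arrays left out, differences crossed 0 at 16% against 8% for Mid1ip1 (95135_at) (-0.13 to 0.34), Acly (-0.07 to 0.03) and Me1 (-0.11 to 0.03). They did so at days 9 against 2 for Mid1ip1 (lowest -0.01) and Slc25a1 (162358_i_at) (-0.30 to 0.11), in pregnancy for Thrsp (-0.18 to 0.13) and Acly (-0.02 to 0.17), and at days 2 against 1 for Thrsp (-0.04 to 0.18). The cause of these shifts was not tested. Probe sets near the filter line, as those of Mid1ip1 in the mammary groups, have little signal over background. In liver Mid1ip1 (95135_at) had a mean of 8.36, well above that line.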
